A study of Mus musculus with 2 samples.

Results

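The genes described here are 9 exchange factors of the small GTPases Ras, Ral and Rap: Rasgrp1, Rasgrp2, Rasgrp3, Rasgrp4, Rgl1, Rgl2, Ralgds, Sos1 and Sos2. They were taken by symbol from an array that names 21947 mouse genes, as every probeset that carries 1 of the 9 symbols and no other. The group was chosen by the differences between these same 2 arrays, above all those of Rasgrp3 and Rgl1, so all differences below describe the 2 arrays and support nothing beyond them. The tested culture was treated with 300 nM of the LSD1 inhibitor known as compound B, and the other received the solvent DMSO. Both started from FLK1+ cells of day 3 embryoid bodies of 1 mouse embryonic stem cell line, Bry-GFP, in which GFP reports the mesoderm gene Brachyury. The CD41 compartment was sorted from each on culture day 2, and its total RNA was hybridised to 1 Affymetrix array per condition, so there are no replicates and no tests.

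Ras, Ral and Rap are switch proteins that signal while they hold GTP, and exchange factors turn them on by releasing GDP. Most RasGRP proteins are recruited to membranes by diacylglycerol, the lipid that phospholipase C makes below activated receptors. Sos1 and Sos2 are brought to receptor tyrosine kinases by the adaptor Grb2. Ralgds, Rgl1 and Rgl2 bind active Ras and load Ral with GTP, which joins the Ras and Ral pathways into a chain. These routes serve growth factor receptors in endothelium and blood progenitors, and several RasGRP genes are best known from single blood lineages.

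Values are log2 probeset intensities. A probeset was used where the brighter of its 2 values reached 3.17, the median of the whole table, and is called bright. Of 207 probesets of the 9 genes, 175 were bright, and all 9 genes had the 4 bright probesets needed to be measured. A gene's level is the median of its bright probesets in an array, and its difference is the median of their differences, inhibitor minus DMSO, which can differ from the gap between its levels. The SD given with a difference is its spread over the probesets of that gene, not an error between samples. The size rule asked for a difference of at least 1 on the log2 scale, or 2-fold, with at least 75% of the bright probesets in that direction.

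Rasgrp3 and Rgl1 were the 2 of 9 exchange factors that were higher past the size rule in the inhibitor array, and none was lower. Of the 15087 genes measured in these arrays, 1.72% were higher past the rule and 0.563% were lower. The differences of Rasgrp3 and Rgl1 were among those that led to the choice of the group, so nothing is read from this share. The other 7 ran from -0.35 for Rasgrp1 to 0.75 for Rgl2, and the median of the 9 was 0.10, against 0.06 over all measured genes. The central 90% of all measured genes lay between -0.50 and 0.68. Rgl2 at 0.75 and Ralgds at 0.71 lay just above that range.

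**Figure D1:**
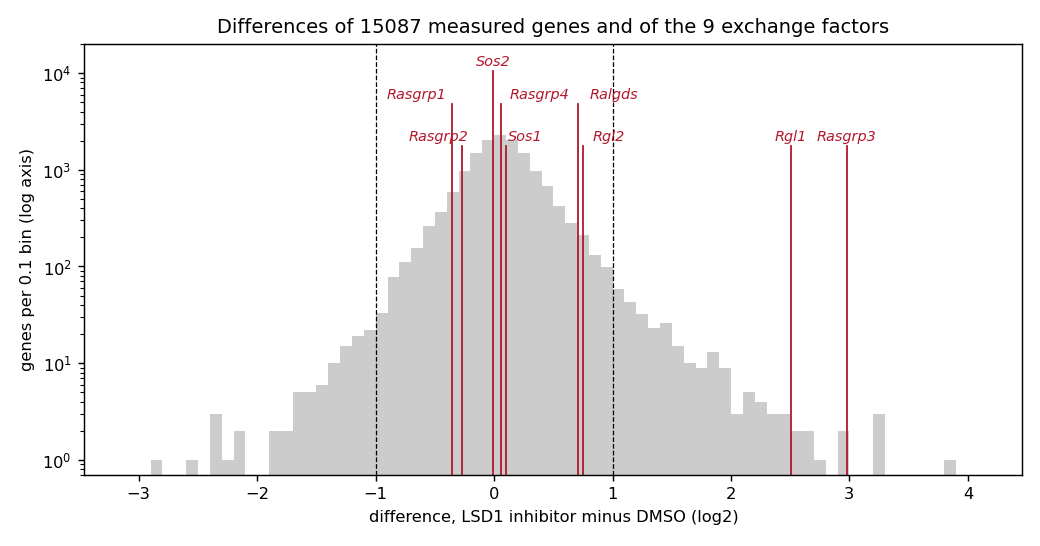
Histogram of the log2 differences, inhibitor minus DMSO, of the 15087 measured genes in bins of 0.1, with a logarithmic vertical axis; red lines mark the 9 exchange factors and dashed lines a difference of 1 in either direction. Rasgrp3 at 2.98 and Rgl1 at 2.51 lie far to the right, and the other 7 lie between -0.35 and 0.75.

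The promoters of both genes past the rule are printed here, since these members were higher in the same array, with the 2 start sites that RefSeq gives each of them. Each window runs from 250 bases before a transcription start to 50 after it, on the gene's own strand, in mouse build GRCm38.p6. Capitals mark matches, on either strand, to 6 motifs. The core of the site that the Gfi1 repressor binds was searched as AAATCA. The motif of the transcription factors of the GATA family was taken as AGATAA. For the many members of the ETS family of endothelium and blood the core was CCGGAA. The motif of the Runx proteins, which blood formation needs, was TGTGGT. The motif searched for the Sox proteins, several of which act in endothelium, was AACAAT. An E-box, the kind of site that Tal1 and related proteins bind, was searched as CAGCTG. No matches overlapped each other.
Rasgrp3 first start, chr17:75435655-75435954, plus strand: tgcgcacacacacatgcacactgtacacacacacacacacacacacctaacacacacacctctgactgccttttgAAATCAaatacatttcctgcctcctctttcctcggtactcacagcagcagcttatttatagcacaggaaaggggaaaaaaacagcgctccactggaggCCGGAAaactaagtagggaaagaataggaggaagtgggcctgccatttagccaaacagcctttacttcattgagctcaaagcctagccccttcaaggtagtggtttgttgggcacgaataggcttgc
Rasgrp3 second start, chr17:75465288-75465587, plus strand: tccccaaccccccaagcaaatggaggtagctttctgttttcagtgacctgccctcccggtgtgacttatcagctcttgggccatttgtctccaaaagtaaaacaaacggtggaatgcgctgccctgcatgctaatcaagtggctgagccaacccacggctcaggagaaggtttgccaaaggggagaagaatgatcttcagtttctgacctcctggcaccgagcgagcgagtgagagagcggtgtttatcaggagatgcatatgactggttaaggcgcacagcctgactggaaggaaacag
Rgl1 first start, chr1:152766256-152766555, minus strand: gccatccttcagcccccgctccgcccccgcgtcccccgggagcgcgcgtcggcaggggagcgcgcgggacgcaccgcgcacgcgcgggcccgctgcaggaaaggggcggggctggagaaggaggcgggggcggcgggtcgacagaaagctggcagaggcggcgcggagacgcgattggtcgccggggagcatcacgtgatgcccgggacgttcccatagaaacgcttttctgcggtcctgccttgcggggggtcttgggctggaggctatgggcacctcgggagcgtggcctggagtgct
Rgl1 second start, chr1:152625168-152625467, minus strand: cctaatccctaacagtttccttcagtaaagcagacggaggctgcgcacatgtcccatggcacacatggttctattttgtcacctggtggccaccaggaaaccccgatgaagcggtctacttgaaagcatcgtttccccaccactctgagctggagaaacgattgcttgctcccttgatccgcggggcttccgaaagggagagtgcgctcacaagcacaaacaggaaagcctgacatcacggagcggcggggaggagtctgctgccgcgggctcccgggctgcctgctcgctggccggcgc

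The first Rasgrp3 window held the Gfi1 core, with its first base 175 bases before the start, and an ETS core 77 bases before it. The second Rasgrp3 window and both Rgl1 windows held none of the 6 motifs as spelled above. The 2 genes thus shared none of these exact runs of letters in these windows. Each motif was searched in 1 spelling, on both strands, and other forms of its site were not counted. Across the 32851 promoter windows of the table, 14.0% held the Gfi1 core, 14.9% the ETS core, 11.2% the GATA motif, 16.8% the Runx motif, 10.7% the Sox motif and 16.3% the E-box. RefSeq windows were found for 8 of the 9 members, 12 windows in all, and Rasgrp4 had none. Of these 12, 2 held the Gfi1 core (Rasgrp3 and Ralgds) and 3 the ETS core (Rasgrp3, Rasgrp2 and Sos1). The Runx motif was in 1 window (Sos1), the E-box in 1 (Ralgds), and the GATA and Sox motifs in 0. A match is a run of letters and not a shown binding site.

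The windows differed in base composition. The Rasgrp3 windows had 48.3% and 52.7% G and C bases, near the median of 52.7% over all windows, with 5 and 9 CpG dinucleotides. The first Rgl1 window had 73.3% with 39 CpG and the second 59.3% with 19. The 8 windows of the other 6 members ran from 63.7% to 82.7%, with 19 to 54 CpG.

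Among the RasGRP genes, Rasgrp3 stood alone past the rule. Rasgrp3 activates both Ras and Rap1 and is known from B cells and from embryonic vessels. In the inhibitor array its 18 bright probesets had a lowest value of 4.27, a median of 7.26 and a highest of 8.92, against 1.73, 4.65 and 5.88 in the DMSO array. Taken without their pairing, the probeset values of the 2 arrays overlapped little: 15 of the 18 inhibitor values lay above the highest DMSO value. Such a range is over the probesets of a gene and not over samples, here and for the genes below. The difference was 2.98 (SD 1.05), or 7.87-fold, with 17 of 18 probesets higher. All 17 were at least 2-fold higher and 14 at least 4-fold, while 8.69% of the 208583 bright probesets with 1 gene symbol in the table were at least 2-fold higher. In the DMSO array 4 of the 18 values lay below 3.17, and in the inhibitor array 0 did. These 4 probesets were counted as bright through the inhibitor array alone, so nothing is read from that contrast.

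A single Rasgrp3 probeset did not share the difference. It had 5.68 in the inhibitor array and 5.71 in the DMSO array, a difference of -0.04 at a brightness within the range of the others. The next lowest difference was 1.51, in a probeset with 4.27 in the inhibitor array and 2.76 in the DMSO array. The highest was 4.30, in a probeset that had 6.04 with the inhibitor and only 1.73 with DMSO, and so was bright through the inhibitor array alone. The place of each probeset in the gene is not given in the sources used here, so these were not tied to exons.

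Rasgrp1, known from T cells and mast cells, had a level of 4.21 in the inhibitor array and 4.57 in the DMSO array. Its 11 bright probesets ran from 2.91 to 6.78 with the inhibitor and from 2.73 to 7.14 with DMSO, so these unpaired ranges overlapped throughout. The difference was -0.35 (SD 0.54), with 9 of 11 probesets lower, and 8.84% of measured genes had a lower difference. Another 10 of its 21 probesets were not bright in either array.

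Rasgrp2, also called CalDAG-GEFI, activates Rap1 in platelets and is needed there for integrin activation. Its level was 5.53 in the inhibitor array and 4.98 in the DMSO array, whereas its median difference was -0.27 (SD 0.78), of the opposite sign. With 7 probesets higher and 10 lower of 17, no direction is given for it. Its probesets ranged from a difference of -1.36 (3.39 with the inhibitor and 4.75 with DMSO) to 1.36 (4.72 with the inhibitor and 3.36 with DMSO).

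Rasgrp4, known from mast cells and other myeloid cells, had a level of 3.95 in the inhibitor array and 4.17 in the DMSO array. Its difference was 0.06 (SD 0.59), with 6 of 11 bright probesets higher and 5 lower. The sign of that value changed with the processing: it was -0.31 when only probesets above the 75th percentile of the table were used and 0.33 when dim probesets were kept. Of its bright probesets, 0 in the inhibitor array and 4 in the DMSO array lay below 3.17, so these 4 were bright through the inhibitor array alone. Another 7 of its 18 probesets did not reach that value in either array.

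**Figure D2:**
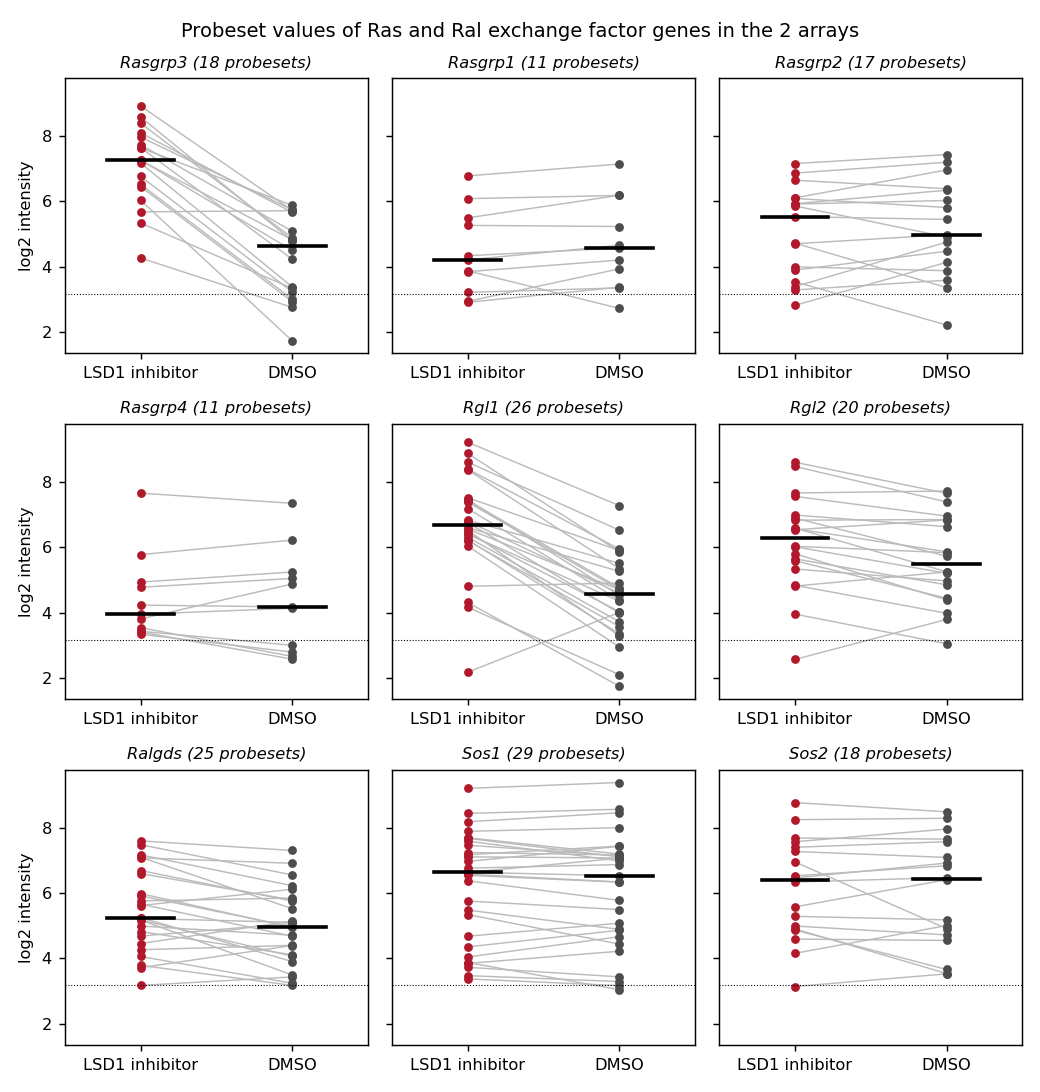
Log2 intensity of every bright probeset of the 9 genes in the LSD1 inhibitor array (left in each panel) and the DMSO array (right); grey lines join the 2 values of a probeset, black bars are the medians and the dotted line is 3.17. Nearly all lines of Rasgrp3 and Rgl1 slope steeply, 17 of 18 and 24 of 26 probesets being higher with the inhibitor, while those of Sos1 and Sos2 run both ways, with 17 of 29 and 9 of 18 probesets higher.

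Of the factors that couple Ras to Ral, Rgl1 was past the rule. Its 26 bright probesets had a lowest value of 2.18, a median of 6.68 and a highest of 9.21 in the inhibitor array, against 1.75, 4.55 and 7.27 in the DMSO array. The ranges overlapped more than those of Rasgrp3, with 9 of 26 inhibitor values above the highest DMSO value. Probeset by probeset the difference was 2.51 (SD 1.08), or 5.68-fold. It was at least 2-fold higher in 24 of 26 probesets and at least 4-fold higher in 19. Beside this and the 2-fold counts below stand 8.69% higher and 6.04% lower of all bright probesets with 1 gene symbol. No such share was taken at 4-fold.

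The 2 other Rgl1 probesets stood apart from the rest. In 1 the inhibitor value of 2.18 was below the DMSO value, with a difference of -1.83, and in the other it was 4.80 with the inhibitor and 4.90 with DMSO. The next lowest difference was 1.32, and the highest, 3.23, came from a probeset with 6.51 in the inhibitor array and 3.29 in the DMSO array.

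Rgl2, a close relative of Rgl1, had a level of 6.28 in the inhibitor array and 5.49 in the DMSO array. Its 20 probesets were all bright and ran from 2.57 to 8.60 with the inhibitor and from 3.05 to 7.72 with DMSO. These unpaired ranges overlapped broadly. The difference was 0.75 (SD 0.67), or 1.68-fold, with 15 of 20 probesets higher, 5 of them at least 2-fold. It met the direction requirement exactly and not the size, and it passed when the threshold was 1.5-fold, as 5.85% of all measured genes did upward.

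Ralgds, the founding Ral exchange factor, had a level of 5.25 in the inhibitor array and 4.96 in the DMSO array. Its 25 bright probesets ran from 3.17 to 7.59 with the inhibitor and from 3.17 to 7.30 with DMSO. The median difference was 0.71 (SD 0.69), with 18 of 25 higher, which is 72.0% and short of the direction requirement, and 5 of them at least 2-fold. The gap between its 2 levels, 0.28, was smaller than that median, because different probesets lie at the middle of each array. Of all measured genes, 96.1% had a lower difference than Rgl2 and 95.5% a lower one than Ralgds.

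The receptor-coupled factors Sos1 and Sos2 lay near the middle of all genes. Sos1 had a level of 6.63 in the inhibitor array and 6.53 in the DMSO array, with a difference of 0.10 (SD 0.42) over 29 bright probesets, 17 higher and 12 lower. None of its bright probesets differed by 2-fold in either direction, the extremes being -0.62 and 0.90. Sos2 had 6.40 with the inhibitor and 6.44 with DMSO, and a difference of -0.01 (SD 0.75), with 9 of 18 probesets higher and 9 lower. The sign of so small a value has no meaning here, and 3 of the 14 other settings turned it. Of the Sos2 probesets, 3 were at least 2-fold higher, the furthest with 6.95 in the inhibitor array and 4.91 in the DMSO array, and 0 were 2-fold lower.

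**Figure D3:**
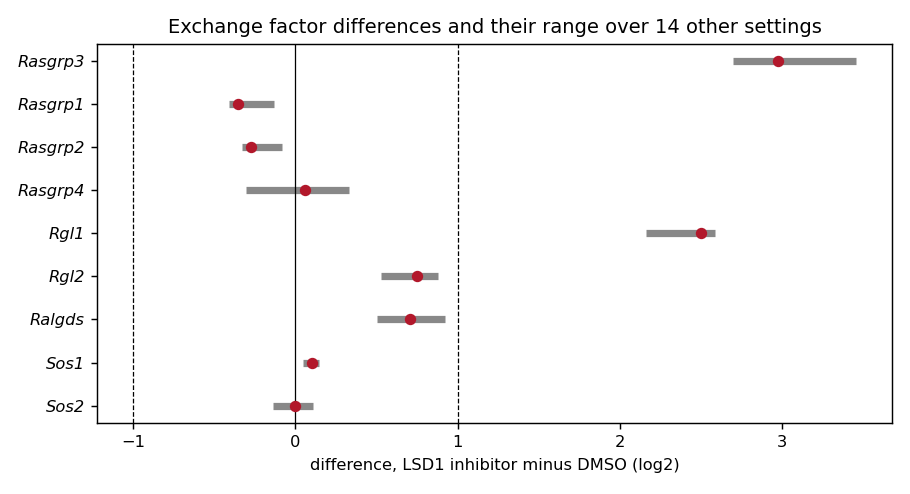
Log2 difference, inhibitor minus DMSO, of each exchange factor as reported (red point) and its range over 14 other processing settings (grey bar), with dashed lines at -1 and 1. The bars of Rasgrp3 (2.70 to 3.46) and Rgl1 (2.16 to 2.59) stay above 1, those of Rgl2 and Ralgds stay between 0 and 1, and those of Rasgrp4 and Sos2 cross 0.

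In the order of all 15087 differences from the highest down, Rasgrp3 was number 5 and Rgl1 number 11. With 2 arrays, likeness can only be the closeness of that single value. The nearest named genes to Rasgrp3 were Id3 (3.24) and Gimap4 (3.22) above it and Ramp2 (2.92) and Oit3 (2.70) below it. Those nearest to Rgl1 were the endothelial phosphatase gene Ptprb (2.63) and Parp8 (2.55) above it and the lipoprotein lipase gene Lpl (2.45) and Gfi1 (2.43) below it. Gfi1, a repressor that recruits LSD1, had a level of 7.30 in the inhibitor array and 4.87 in the DMSO array.

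Outside the 9 genes, 13 lists of the same pathway held 89 genes, of which 81 were measured and 8 were not analysed here. Of the 81, 3 were higher past the size rule, 0 were lower and 78 were neither, beside the 1.72% of all measured genes that were higher and 0.563% that were lower. Their median difference was 0.11, against 0.06 over all measured genes. The 3 were Dusp4, Mapk3 and Prkch.

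The switch proteins themselves did not pass the rule. Of the 5 measured Ras genes 0 passed in either direction, with a median of 0.15. The furthest were Mras at 0.33, Rras2 at 0.18 and Hras at 0.15, which turned to -0.10 with odd-ranked probesets alone. Rala, the substrate of Rgl1, Rgl2 and Ralgds, had a level of 8.42 in the inhibitor array and 7.97 in the DMSO array, with a difference of 0.55 (SD 0.17) and 6 of 6 probesets higher. Its relative Ralb had 7.87 with the inhibitor and 7.25 with DMSO, a difference of 0.49 (SD 0.33), also in 6 of 6. Of the 6 measured genes of Ral and its effectors 0 passed, with a median of 0.27. Reps2 was at 0.42 (SD 1.33), but its 12 bright probesets were mixed, 7 higher and 4 lower. Of 4 measured Rap genes 0 passed, and Rap2c was at 0.49, Rap2a at 0.19 (-0.30 with odd-ranked probesets alone) and Rap1a at 0.09.

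Other exchange factors gave no counterpart to Rasgrp3 or Rgl1. In the list of the remaining Ras and Ral exchange factors 0 of 5 passed, with a median of -0.03. Rgl3, the other RalGDS-like gene, was at 0.24 (0.16 to 0.79 over 14 other settings) with 15 of 20 probesets higher. Rasgrf2 was at -0.39 (SD 1.12) with mixed probesets, 3 higher and 4 lower. Ralgps2, which loads Ral without binding Ras, was at -0.56 with 20 of 23 lower. Of 6 Rap exchange factors 0 passed. Rapgef5 was at 0.75 (SD 0.50) with all 28 of its probesets higher, its level being 5.98 in the inhibitor array and 5.01 in the DMSO array. Rapgef3, the cAMP-regulated factor Epac1, was at 0.32, and Rapgef4 was at 0.23 but at -0.37 with a filter at the 75th percentile. Rapgef3 turned to -0.03 with even-ranked probesets alone.

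The proteins that switch Ras and Ral off showed 0 of 9 measured Ras GTPase-activating genes past the rule, with a median of 0.08. Rasal2 was at 0.67, and at 1.09 and past the rule with even-ranked probesets alone. Rasa1, which encodes p120 RasGAP, was at 0.38 with 22 of 25 higher, and Rasa2 at -0.45. The 3 subunit genes of the Ral GTPase-activating complex, Ralgapa1 (-0.05), Ralgapa2 (0.07) and Ralgapb (0.04), had differences so small that each turned sign in at least 1 setting.

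Upstream of the exchange factors, 0 of 6 phospholipase C genes passed. Plcb1 came closest, at 0.99 (SD 0.82) with 24 of 26 probesets higher, a level of 4.79 in the inhibitor array and 3.97 in the DMSO array, and it passed in 2 of 14 other settings, reaching 1.19. Plcg1, which acts below receptor tyrosine kinases, was at 0.27 and Plcb3 at 0.20. Of 9 diacylglycerol kinases, which remove the lipid that recruits most RasGRP proteins, 0 passed. Dgki was at 0.42, Dgka at 0.28 and Dgkb at 0.16, and the list median was 0.00. Among 6 adaptors 0 passed, with Gab2 at 0.60 in 12 of 13 probesets, Shc1 at 0.40 and Frs2, the docking protein of FGF receptors, at -0.73 with 15 of 16 lower. Of 6 protein kinases C that respond to diacylglycerol, 1 was higher past the rule. This was Prkch, at 1.02 (SD 0.87) with 13 of 14 probesets higher, which did not pass in 3 of 14 other settings. Prkce was at 0.58 and Prkca at -0.27.

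Downstream, 1 of 6 measured kinases of the Raf-MEK-ERK cascade was higher. Mapk3, which encodes ERK1, had a level of 6.68 in the inhibitor array and 6.20 in the DMSO array and a median difference of 1.07 (SD 0.47), with 8 of 9 probesets higher. As a mean over probesets it was 0.87 and did not pass, nor did it with even-ranked probesets alone. The scaffold gene Ksr1 was at 0.60 and the MEK1 gene Map2k1 at 0.42 in 9 of 9 probesets. Of 10 measured feedback and target genes of ERK 1 was higher past the rule, with a list median of 0.28. This was Dusp4, a nuclear phosphatase that inactivates ERK, with 7.80 in the inhibitor array and 6.44 in the DMSO array, a difference of 1.46 (SD 0.28) and 8 of 8 probesets higher. It passed in all 14 other settings. Spred1 and Spred2, inhibitors of Ras signalling, were at 0.54 and 0.50.

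**Figure D4:**
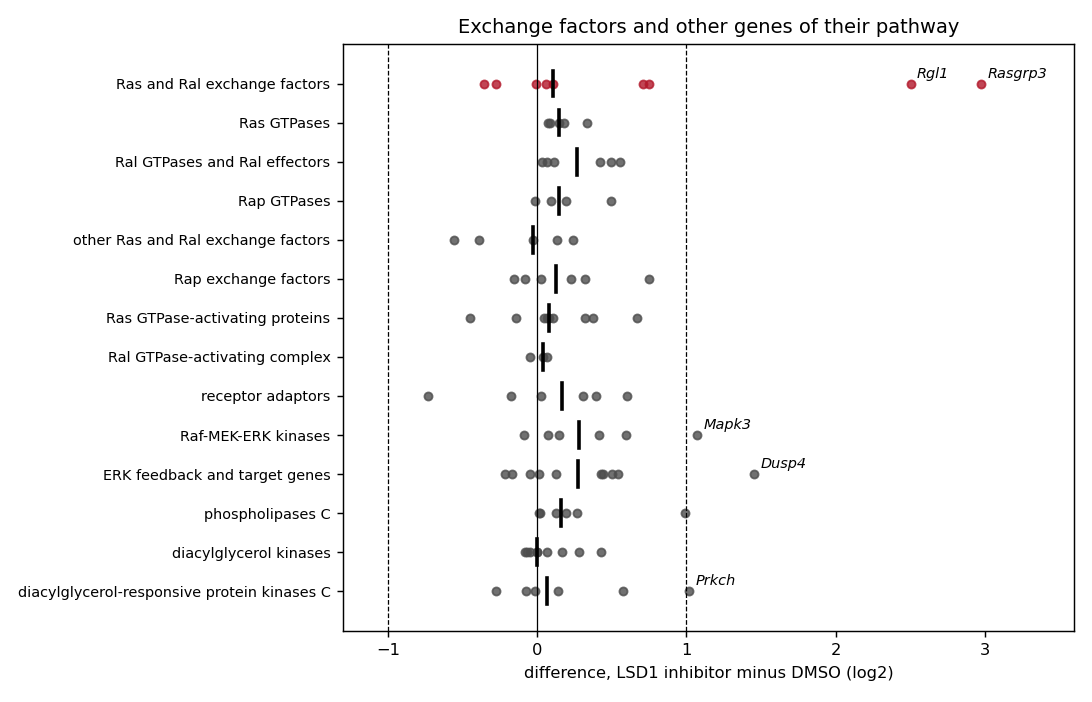
Log2 differences, inhibitor minus DMSO, of the 9 exchange factors (red, top row) and of 81 measured genes in 13 lists of the same pathway (grey), 1 point per gene, with black bars at list medians and dashed lines at -1 and 1. The 5 named points are the genes past the size rule, and Rasgrp3 and Rgl1 lie beyond every gene of the other lists.

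Markers of some cell types also differed between the arrays, in counts to be set beside the same 1.72% higher and 0.563% lower of all measured genes. Of 10 endothelial markers 9 were measured, all 9 had a difference above 0 and 4 were higher past the rule: Cdh5 (2.11), Esam (1.97), Egfl7 (1.63) and Flt1 (1.22). Emcn, at 1.02 without the direction requirement met, passed in 3 other settings, Tek in 2, and Kdr, Pecam1 and Tie1 in 1 each. Cdh5, the gene of the endothelial protein VE-cadherin, had a level of 9.84 in the inhibitor array and 7.89 in the DMSO array. A sum of linear intensities weighs the brightest genes most. Summed in that way, the levels of the 9 markers gave a log2 of 10.95 in the inhibitor array and 9.51 in the DMSO array, beside the higher Rasgrp3 and Rgl1. Their part in the differences of these 2 genes was not tested. In bulk RNA a change in the share of a cell type cannot be told apart from a change in RNA per cell.

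Of 8 erythroid markers 7 were measured and 6 were lower past the rule: Hbb-y (-1.89), Epor (-1.64), Hba-x (-1.60), Tfrc (-1.19), Slc4a1 (-1.15) and Klf1 (-1.12). Slc4a1 and Klf1 did not pass when dim probesets were kept, nor did Slc4a1 with dim values raised to the table's median. With odd-ranked or even-ranked probesets alone, or with at least 8 bright probesets asked for, 3 were lower past the rule, since fewer genes were measured. Summed as linear intensities, the 7 levels gave a log2 of 11.16 in the inhibitor array and 13.15 in the DMSO array. Of 8 megakaryocyte and platelet markers 5 were measured and 2 were lower, P2rx1 (-1.66) and Pf4 (-2.29, and -0.77 with dim values raised to the median of the table), beside the mixed probesets of Rasgrp2. P2rx1 passed in all 14 other settings, and Pf4 in 9 of the 10 that measured it. Itga2b, the gene of the sort marker CD41, differed by -0.12, Itgb3 by -0.33 and Gp6 by 0.03. The median of the 5 measured markers was -0.33, and 1 of them was above 0.

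Markers of mast cells, T cells and B cells, in which RasGRP genes are known, and of mesenchyme held 0 genes past the rule as reported. Of 6 mast cell markers 4 were measured and 0 passed, with levels from 3.68 to 4.32 in the inhibitor array and from 3.63 to 4.47 in the DMSO array. Hdc was at 0.76 and Tpsb2 at -0.85, and the list median was -0.47, with 1 of the 4 genes above 0. Of 6 T cell markers 4 were measured, from 3.46 to 4.10 in the inhibitor array and from 3.05 to 3.88 in the DMSO array, and 0 passed. Cd4 was at 0.73 (1.06 and past the rule with odd-ranked probesets alone) and Zap70 at 0.35. Of 5 B cell markers only Pax5 was measured, at -0.06. Of 5 smooth muscle and mesenchyme markers 0 passed, with Acta2 at -0.41 (10.46 in the inhibitor array and 11.06 in the DMSO array) and Pdgfrb at -0.82, which was at -1.01 and lower past the rule with a filter at the 75th percentile. The part of these cell types in the values of Rasgrp1, Rasgrp2 and Rasgrp4 was not tested.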

How the data were processed

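The deposited table holds 1 value per probeset for each of 2 arrays, taken to be log2 intensity because values run from 0.157 to 13.5. How the authors summarised and normalized them, and the genome build of the probesets, is not given in the sources used here. At equal rank, values of both arrays lie within 0.085 of each other. The table has 1048575 probesets and ends, header included, at the last row a spreadsheet can hold, so others may exist that were not analysed here, and it has no detection calls. A platform annotation names 275842 of them, 270105 with 1 symbol. Of the single symbols, 17905 were current in RefSeq (GRCm38.p6), 4167 were updated through synonyms and 61 were kept. Probesets with several symbols were left out.

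Values were used as deposited. The gene summary, tested on simulated data, was run on all genes with Python 3.11.15 and pandas 2.3.3. Alternatives covered scaling, dim values, the summary and the thresholds. The number of arrays, 1 per group, limits the precision. The members, gene lists and rules were chosen with earlier results of these data known. From each pathway list the text names all genes past the size rule and the 3 furthest from 0, and from each marker list those and the 2 furthest. For Rasgrp3 and Rgl1 it names the 2 nearest differences on each side, leaving out clones and predicted genes. Itga2b was added as the gene of the sort marker, and Itgb3 and Gp6 as the remaining measured markers of its list.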

Additional observations from a re-analysis of the deposited data

How the results depend on the processing

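Rasgrp3 and Rgl1 were higher past the size rule in each of 14 other settings, and also at a 3-fold threshold. Not all 14 could change them. With 18 and 26 bright probesets, asking for at least 1 or at least 8 left both values as they were. Rasgrp3 ranged from 2.70 with even-ranked probesets to 3.46 with odd-ranked ones, and Rgl1 from 2.16 as a mean over probesets to 2.59 with a filter at the 75th percentile. Rgl2 ranged from 0.53 to 0.88 and Ralgds from 0.50 to 0.92, and Rgl2 joined the 2 at a 1.5-fold threshold. Signs turned in 3 settings each for Rasgrp4 and Sos2. Over all measured genes, 259 were higher and 85 lower. The counts were 641 higher and 439 lower with at least 1 bright probeset and 155 higher and 44 lower with at least 8. They were 882 higher and 402 lower at 1.5-fold and 70 higher and 18 lower at 3-fold, and 51 were lower with values below the median raised to it. Values of single members and of lists counted as moved beyond their spread over probesets or genes, or for counts beyond 1.5 times. By that rule 36 moved and 1047 did not. The rule is wide: signs that turned within the spread, and list counts that stayed at 0, are among the 1047. Of the members past the size rule, 0 changed sign. With only the 150 bases before the start searched, the Gfi1 core was in 0 of 12 member windows and the Runx motif in 0, since the window is shorter. The probeset IDs show no separate exon and junction kinds, so that alternative was not run. No paired analysis was possible because there is 1 array per group. Without detection calls, signal near background limits Rasgrp1 and Rasgrp4 most.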

Other observations

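The 32 probesets of the 9 genes that did not reach 3.17 in either array stayed out of all values above. Of the 7 dim Rasgrp4 probesets, 5 were higher in the inhibitor array, with a median difference of 0.39. Of the 10 dim Rasgrp1 probesets, 6 were higher, with a median of 0.07, whereas its bright probesets had a median of -0.35. The 3 dim Rgl1 probesets had differences from -0.28 to 0.67, all below those of its 24 higher bright probesets. The filter itself favours this contrast, since a probeset that is much higher with the inhibitor tends to reach 3.17 there and count as bright. Nothing is read from it.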
